A study of Homo sapiens with 16 samples.

Results

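The genes of glycolysis and of the cellular response to low oxygen were followed in mouse-grown tumours of 4 lines derived from PC-3 (human prostate cancer cells long kept in culture). The set held 35 genes, of 20307 measured, each taken by its gene symbol: 17 glycolytic enzymes, 5 regulators of glycolysis and glucose transporters, 11 other targets of the hypoxia response, and the 2 alpha subunits of hypoxia-inducible factor, HIF1A and EPAS1. PKM2, the pyruvate kinase gene now called PKM, is kept under the file's name. RNA from 16 tumours was hybridised to Affymetrix arrays, 1 array per tumour and 4 independent tumours per line. All tumours grew under the skin of female nude mice of a BALB/c background, injected at 5 weeks of age and killed once the tumour measured 5 mm or more.

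In mock, telomeres were short and hTERT, the enzyme subunit of telomerase, came only from the basal expression of PC-3. In LhTERTL, telomeres were long and exogenous hTERT was present. Both other lines bear the Cre label, Cre being a recombinase that cuts out marked DNA, and neither holds exogenous hTERT: telomeres were short in mock_cre and long in LhTERTL_cre. Each group was 1 line, so telomere length cannot be told apart from any other difference between lines, and every p-value reflects only how tumours of 1 line vary. The deposited values are log2 signals centred on the median of each probe set over the 16 arrays: 0 is the middle of the 16 tumours, a difference of 1 is a doubling, and no absolute level remains. Presence of the PC-3 epithelial markers, or of any member, could therefore not be judged, and fewer cells of a type cannot be told apart from less RNA per cell.

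Glycolysis splits glucose into pyruvate in the cytoplasm, and lactate dehydrogenase turns pyruvate into lactate. When oxygen is scarce the alpha subunits of hypoxia-inducible factor escape degradation, pair with ARNT and bind DNA at the core letters A or G followed by CGTG. Many of the genes they switch on encode glycolytic enzymes and glucose transporters, and others act in acid balance, blood vessel growth, mitophagy and the brake on growth signalling. Tumour cells often keep glycolysis high even with oxygen at hand.

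Between long and short telomeres, averaged over LhTERTL against mock and LhTERTL_cre against mock_cre, 28 of the 35 genes passed limma's test at an adjusted p under 0.05, 22 of them higher and 6 lower with long telomeres. Any difference among the 4 lines was called for 31 of the 35, against 39.7% of all genes. Over all genes 32.5% passed the telomere contrast, 18.4% higher and 14.1% lower. Of the 17 glycolytic enzymes 14 were higher and none lower, with a median difference of 0.36 against 0.018 for all genes. Of the 5 regulators and transporters 4 were higher. The 11 other hypoxia targets divided evenly, 4 higher and 4 lower, with a median of 0.14, and both alpha subunits were lower. The heat map of all 35 genes shows most enzymes above 0 (red) in LhTERTL and below 0 (blue) in mock_cre. LhTERTL had the highest mean for 14 of the 17 enzymes and for 7 of the 11 other hypoxia targets. The lowest mean was in mock_cre for 10 of the enzymes. Among the hypoxia targets the lowest was LhTERTL_cre for 5, mock_cre for 4 and mock for 2.

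**Figure D1:**
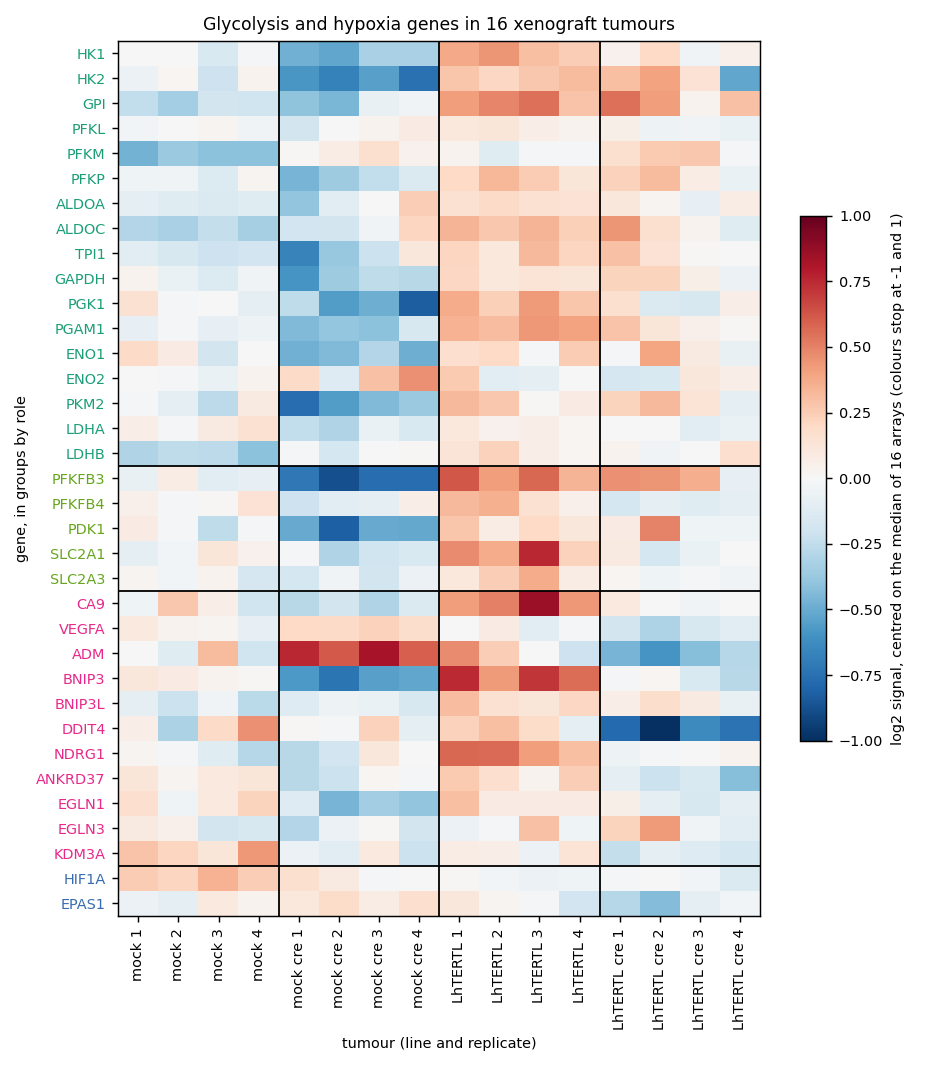
Centred log2 signal of the 35 genes (rows, names coloured by role) in the 16 tumours (columns, 4 per line), with colours from -1 (blue) to 1 (red). LhTERTL had the highest mean of the 4 lines for 26 genes and mock_cre the lowest for 18.

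The averaged contrast rested in part on mock_cre. Leaving its arrays out sets the mean of LhTERTL and LhTERTL_cre against mock alone, so that Cre is no longer matched. Without the mock_cre arrays, with mock as the only short-telomere line, 15 of the 35 genes passed, 12 higher and 3 lower (9 higher among the enzymes, 1 among the regulators, 2 higher and 2 lower among the other hypoxia targets, and 1 lower among the alpha subunits), against 21.5% of all genes in that fit. The median became 0.23 over the enzymes, and -0.078 over the other hypoxia targets, where its sign turned. With the 4 lines as the units, 2 against 2, limma called none of the 20307 genes, and 7 of the 35, against 3218 of all 20307, had an unadjusted p under 0.05.

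The promoter letters that the factor binds are shown for genes on which the results turn. RefSeq (GRCh38.p14) gave 250 bases before the start for 31 of the 35 genes, in 55 windows, since 11 genes have several listed starts; SLC2A3, VEGFA, BNIP3L and NDRG1 were not matched. The letters ACGTG were sought on both strands, so that CACGTG counts once on each. They stood in at least 1 window of 18 of the 31 genes (58.1%), against 26.2% of the 14945 measured genes with a window; by window the shares were 38.2% and 20.6%, and 18.5% over all 35116 windows of the table. The windows of the set were also richer in CG, with a median of 24 CG pairs against 17 in measured genes. By role 11 of 17 enzymes, 2 of 4 regulators, 5 of 8 other hypoxia targets and neither alpha subunit held the letters. Among genes higher with long telomeres 13 of 19 did, among those lower 1 of 5, and among those not called 4 of 7. The alternative core GCGTG stood in 54.8% of the genes, against 46.9% of measured genes. By role it stood in 9 of 17 enzymes, 2 of 4 regulators, 4 of 8 other hypoxia targets and both alpha subunits. Among genes higher with long telomeres 9 of 19 held it, among those lower 5 of 5, and among those not called 3 of 7. Each sequence below runs 5′ to 3′ on the gene's strand and ends at the base before the start, with ACGTG on either strand in capitals.
GPI (chr19:34364742-34364991, plus strand): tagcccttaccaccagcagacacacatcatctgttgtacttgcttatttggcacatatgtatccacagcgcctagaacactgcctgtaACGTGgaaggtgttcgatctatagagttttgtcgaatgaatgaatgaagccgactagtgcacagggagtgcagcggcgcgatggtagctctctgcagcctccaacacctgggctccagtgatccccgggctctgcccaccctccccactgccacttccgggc
PGK1 (chrX:78103998-78104247, plus strand): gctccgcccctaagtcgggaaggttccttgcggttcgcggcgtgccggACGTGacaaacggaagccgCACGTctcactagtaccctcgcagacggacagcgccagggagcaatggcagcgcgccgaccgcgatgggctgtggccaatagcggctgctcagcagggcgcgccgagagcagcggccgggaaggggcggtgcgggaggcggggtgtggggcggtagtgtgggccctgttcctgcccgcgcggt
LDHA, first of 2 starts (chr11:18394313-18394562, plus strand): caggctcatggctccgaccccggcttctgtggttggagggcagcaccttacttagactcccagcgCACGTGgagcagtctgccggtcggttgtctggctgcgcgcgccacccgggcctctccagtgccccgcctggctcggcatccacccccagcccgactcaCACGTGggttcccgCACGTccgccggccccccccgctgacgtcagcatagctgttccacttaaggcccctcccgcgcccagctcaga
PFKFB3, second of 2 starts (chr10:6202682-6202931, plus strand): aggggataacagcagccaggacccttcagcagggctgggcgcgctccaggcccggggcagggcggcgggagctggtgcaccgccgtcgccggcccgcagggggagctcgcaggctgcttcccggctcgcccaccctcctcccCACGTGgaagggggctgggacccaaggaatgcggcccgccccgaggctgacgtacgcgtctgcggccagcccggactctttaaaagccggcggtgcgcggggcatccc
BNIP3 (chr10:131981924-131982173, minus strand): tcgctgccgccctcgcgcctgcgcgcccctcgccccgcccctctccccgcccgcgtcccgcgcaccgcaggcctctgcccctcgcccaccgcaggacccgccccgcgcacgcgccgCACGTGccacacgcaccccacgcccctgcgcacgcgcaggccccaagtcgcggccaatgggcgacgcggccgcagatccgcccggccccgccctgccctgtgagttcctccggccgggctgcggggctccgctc
CA9 (chr9:35673678-35673927, plus strand): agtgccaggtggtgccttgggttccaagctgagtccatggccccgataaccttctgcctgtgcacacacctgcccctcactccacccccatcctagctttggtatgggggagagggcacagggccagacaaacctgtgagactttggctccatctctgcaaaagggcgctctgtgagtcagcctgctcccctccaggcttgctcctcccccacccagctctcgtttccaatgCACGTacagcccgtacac
DDIT4 (chr10:72273674-72273923, plus strand): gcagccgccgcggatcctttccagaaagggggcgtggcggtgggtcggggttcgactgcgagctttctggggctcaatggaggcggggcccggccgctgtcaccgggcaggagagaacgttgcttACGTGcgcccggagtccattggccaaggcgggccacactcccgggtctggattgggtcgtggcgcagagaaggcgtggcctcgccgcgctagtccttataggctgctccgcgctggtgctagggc
ADM (chr11:10304823-10305072, plus strand): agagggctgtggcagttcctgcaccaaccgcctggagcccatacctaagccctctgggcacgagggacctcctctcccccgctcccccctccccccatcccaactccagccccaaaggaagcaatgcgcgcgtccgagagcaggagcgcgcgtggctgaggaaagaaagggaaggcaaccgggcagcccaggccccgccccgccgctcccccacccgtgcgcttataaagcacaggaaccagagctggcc

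These windows match no single direction of change. GPI, PGK1, PFKFB3, BNIP3 and CA9 were higher with long telomeres and hold ACGTG, and DDIT4 was lower and holds it. ADM was lower, and its window holds GCGTG but no ACGTG. LDHA, with 5 matches in its first window, was not called between long and short telomeres. The second LDHA window and the first PFKFB3 window hold no ACGTG. A match of letters is no evidence of binding.

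The first steps of glycolysis were higher with long telomeres. HK1 and HK2 are hexokinases, which trap glucose in the cell as glucose 6-phosphate, and GPI turns that into fructose 6-phosphate. GPI (Entrez gene 2821) stood at -0.25, -0.34, -0.18 and -0.20 in the mock tumours and at 0.42, 0.49, 0.55 and 0.28 in LhTERTL. In mock_cre GPI was -0.40, -0.45, -0.073 and -0.032, and in LhTERTL_cre 0.55, 0.42, 0.032 and 0.29. Every long-telomere tumour lay above every short-telomere tumour, though LhTERTL_cre 3 at 0.032 cleared mock_cre 4 at -0.032 by a narrow margin. The averaged difference for GPI was 0.62 ± 0.078 log2 units (SE), a 1.54-fold difference (adjusted p = 1.07e-05), with 0.68 in the pair without Cre and 0.56 in the Cre pair.

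Of the 35 genes only GPI and PGAM1 kept all 8 long-telomere tumours above all 8 short ones; 3.91% of all genes did so. None kept all 8 below, against 2.29% of all genes. PGAM1 is the phosphoglycerate mutase that moves the phosphate of 3-phosphoglycerate. Its values were -0.080, -0.014, -0.080 and -0.054 in mock and 0.35, 0.31, 0.43 and 0.41 in LhTERTL. PGAM1 in mock_cre was -0.44, -0.39, -0.41 and -0.16, and in LhTERTL_cre 0.29, 0.12, 0.053 and 0.014. LhTERTL was the highest of the lines and mock_cre the lowest, and the averaged difference was 0.45 ± 0.052 (adjusted p = 3.96e-06).

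The hexokinases were both highest in LhTERTL and lowest in mock_cre by their means. HK1 was -0.0068, 0.0068, -0.15 and -0.018 in the mock tumours, 0.38, 0.44, 0.30 and 0.24 in those of LhTERTL, -0.48, -0.52, -0.32 and -0.33 in mock_cre and 0.042, 0.20, -0.036 and 0.054 in the LhTERTL_cre tumours. Its LhTERTL tumours lay above all others and its mock_cre tumours below all others, while mock and LhTERTL_cre overlapped. The averaged difference for HK1 was 0.43 ± 0.051 (adjusted p = 5.38e-06). HK2, the hexokinase that many tumours switch on, was -0.061, 0.020, -0.21 and 0.038 in mock and 0.27, 0.21, 0.27 and 0.31 in LhTERTL, -0.58, -0.68, -0.55 and -0.75 in mock_cre and 0.30, 0.40, 0.15 and -0.52 in the LhTERTL_cre tumours. LhTERTL_cre 4 stood apart from its line, near the mock_cre values. HK2 passed in the Cre pair (0.72 ± 0.14, adjusted p = 0.000782) and not between LhTERTL and mock (0.32 ± 0.14, adjusted p = 0.121); the averaged 0.52 became 0.23 without the mock_cre arrays (adjusted p = 0.263).

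Phosphofructokinase, the committed step, has 3 genes, of which PFKP and PFKM were called and PFKL was not. PFKP, the platelet form, was higher with long telomeres by 0.36 ± 0.061 (adjusted p = 0.000214), and PFKL, the liver form, differed by 0.042 ± 0.044 (adjusted p = 0.535). PFKM, the muscle form, was -0.47, -0.37, -0.41 and -0.41 in mock, below every other tumour. PFKM in LhTERTL was 0.035, -0.12, -0.012 and -0.012, in mock_cre 0.011, 0.078, 0.16 and 0.044 and in LhTERTL_cre 0.16, 0.26, 0.27 and -0.011. Its averaged difference was 0.24 ± 0.048 (adjusted p = 0.00076); LhTERTL exceeded mock by 0.39 (adjusted p = 0.000603), but LhTERTL_cre and mock_cre differed by 0.096 (adjusted p = 0.346). LDHB and ALDOC were also lowest in mock, without overlap with any other line. LDHB, the lactate dehydrogenase subunit usual in heart, was -0.30, -0.26, -0.26 and -0.41 in mock and 0.13, 0.23, 0.064 and 0.021 in LhTERTL. The Cre lines overlapped for LDHB, at -0.018, -0.18, 0.0012 and 0.014 in mock_cre and 0.037, -0.037, -0.005 and 0.17 in LhTERTL_cre.

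ALDOA and ALDOC are aldolases, which split the 6-carbon sugar, and TPI1 interconverts the resulting fragments. ALDOC was higher with long telomeres by 0.39 ± 0.073 (adjusted p = 0.000509), with 0.59 between LhTERTL and mock and 0.18 in the Cre pair, which did not pass. ALDOA differed by 0.19 ± 0.068 (adjusted p = 0.037), and 13 of the 16 fits that left out 1 tumour lost the call. TPI1 differed by 0.39 ± 0.084 (adjusted p = 0.00155) and passed in both pairs. GAPDH, which makes the first NADH of the pathway, differed by 0.34 ± 0.057 (adjusted p = 0.0002), with 0.19 between LhTERTL and mock (adjusted p = 0.111) and 0.48 in the Cre pair.

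PGK1, phosphoglycerate kinase, makes the first ATP of the pathway and is a standard target of the hypoxia response. It was 0.15, -0.012, -0.006 and -0.090 in mock and 0.37, 0.24, 0.43 and 0.27 in LhTERTL. PGK1 in mock_cre was -0.25, -0.56, -0.49 and -0.82, below all 12 other tumours, and in LhTERTL_cre 0.16, -0.14, -0.16 and 0.066, where the values overlapped those of mock. Averaged, PGK1 differed by 0.41 ± 0.073 (adjusted p = 0.00029), and it was 0.14 without the mock_cre arrays (adjusted p = 0.194). ENO1, an enolase, and PKM2, which makes pyruvate, were also lowest in mock_cre. PKM2 was -0.011, -0.095, -0.26 and 0.089 in the mock tumours, 0.32, 0.27, 0.011 and 0.083 in those of LhTERTL, -0.76, -0.56, -0.44 and -0.37 in mock_cre and 0.22, 0.32, 0.14 and -0.096 in the LhTERTL_cre tumours. The mock_cre tumours lay below all others, and the other lines overlapped. PKM2 differed by 0.46 ± 0.075 (adjusted p = 0.000137) and ENO1 by 0.33 ± 0.071 (adjusted p = 0.00162); without the mock_cre arrays the values were 0.23 (adjusted p = 0.0903) and 0.10 (adjusted p = 0.514).

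Lactate dehydrogenase A, the subunit most tied to lactate output in tumours, was not called between long and short telomeres. LDHA was 0.065, -0.014, 0.088 and 0.15 in mock and 0.11, 0.039, 0.067 and 0.017 in LhTERTL, with overlap. LDHA in mock_cre was -0.25, -0.30, -0.070 and -0.15, and in LhTERTL_cre -0.0032, 0.0032, -0.11 and -0.069. Mock had the highest mean and mock_cre the lowest, and the averaged difference was 0.066 ± 0.045 (adjusted p = 0.296). ENO2, the neuronal enolase, was the only enzyme with a negative averaged difference, -0.11 ± 0.078 (adjusted p = 0.343), and its values ranged from -0.17 to 0.46 over the 16 tumours.

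The largest averaged difference between long and short telomeres was in PFKFB3, which makes fructose 2,6-bisphosphate, the main activator of phosphofructokinase. PFKFB3 (Entrez gene 5209) was -0.077, 0.077, -0.11 and -0.086 in mock and 0.62, 0.42, 0.58 and 0.34 in LhTERTL. In mock_cre PFKFB3 was -0.71, -0.88, -0.76 and -0.76, below all other tumours, and in LhTERTL_cre it was 0.45, 0.44, 0.37 and -0.083. LhTERTL_cre 4 lay among the mock tumours, and the other 3 of its line lay with LhTERTL. The averaged difference was 0.80 ± 0.072 (a 1.75-fold difference, adjusted p = 3.09e-07). It was 0.54 between LhTERTL and mock and 1.07 in the Cre pair, and the difference between these, 0.53 ± 0.14, passed the test (adjusted p = 0.024). PFKFB4, its relative, differed by 0.067 ± 0.054 (adjusted p = 0.39).

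PDK1, the kinase that shuts pyruvate out of the mitochondrial pyruvate dehydrogenase, was 0.083, -0.020, -0.25 and -0.0079 in the mock tumours, 0.28, 0.072, 0.20 and 0.12 in those of LhTERTL, -0.50, -0.82, -0.51 and -0.51 in mock_cre and 0.081, 0.49, -0.039 and -0.040 in the LhTERTL_cre tumours. All mock_cre tumours lay below all others. Its averaged difference was 0.46 ± 0.079 (adjusted p = 0.000204); leaving the mock_cre arrays out gave 0.19 (adjusted p = 0.190). SLC2A1, the GLUT1 glucose transporter, was -0.094, -0.027, 0.12 and 0.045 in mock and 0.48, 0.37, 0.75 and 0.23 in LhTERTL. SLC2A1 in mock_cre was -0.023, -0.30, -0.20 and -0.15, and in LhTERTL_cre 0.087, -0.17, -0.069 and -0.0057. LhTERTL was above the rest and the other 3 lines overlapped; the averaged difference was 0.29 ± 0.069 (adjusted p = 0.0035), and it was 0.20 with mock_cre left out (adjusted p = 0.133). SLC2A3, the GLUT3 transporter, differed by 0.16 ± 0.052 (adjusted p = 0.0205).

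**Figure D2:**
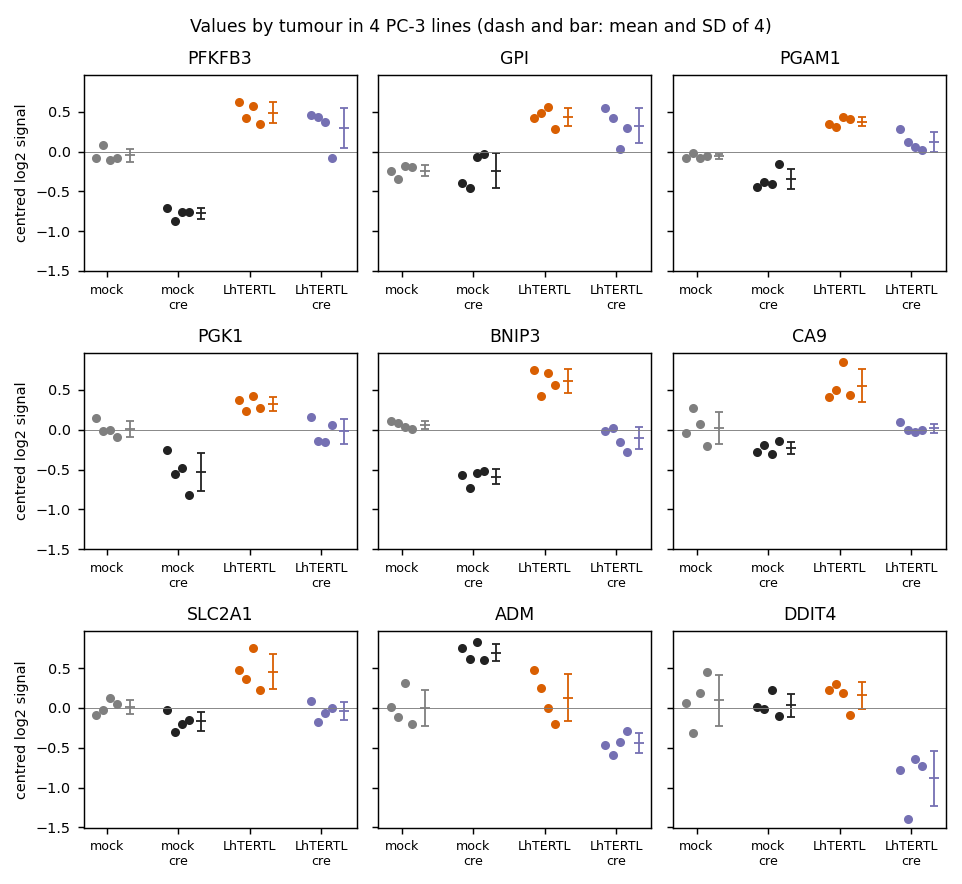
Centred log2 signal of 9 genes in each tumour (points, 4 per line), with the mean and SD of the 4 beside them. PFKFB3, GPI and PGAM1 are high in both long-telomere lines, BNIP3, CA9 and SLC2A1 are highest in LhTERTL, ADM is highest in mock_cre, and DDIT4 is low in LhTERTL_cre.

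Among the other hypoxia targets, BNIP3, CA9, NDRG1 and BNIP3L were higher with long telomeres when averaged over both pairs. Of these only BNIP3 was also called in the Cre pair. BNIP3 marks mitochondria for removal. It was 0.11, 0.079, 0.033 and 0.011 in mock and 0.75, 0.43, 0.72 and 0.56 in LhTERTL. BNIP3 in mock_cre was -0.57, -0.73, -0.54 and -0.52, and in LhTERTL_cre -0.011, 0.019, -0.15 and -0.28. LhTERTL lay above and mock_cre below all other tumours, and LhTERTL_cre reached from below mock into its range. BNIP3 differed on average by 0.52 ± 0.058 (adjusted p = 3.25e-06), and by 0.20 without the mock_cre arrays (adjusted p = 0.0730). BNIP3L, its paralogue, differed by 0.26 ± 0.050 (adjusted p = 0.000704).

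CA9, the carbonic anhydrase used as a tissue marker of hypoxia, was -0.046, 0.27, 0.070 and -0.20 in mock and 0.42, 0.50, 0.86 and 0.44 in LhTERTL. CA9 in mock_cre was -0.28, -0.19, -0.30 and -0.14, and in LhTERTL_cre 0.097, 0.0025, -0.033 and -0.0025. Only LhTERTL stood clear of the rest. For CA9 the averaged difference was 0.39 ± 0.071 (adjusted p = 0.000405), and it was 0.26 with mock_cre left out (adjusted p = 0.0635). NDRG1, a stress gene raised by hypoxia, also stood clear in LhTERTL, at 0.025, -0.012, -0.12 and -0.29 in mock and 0.58, 0.57, 0.42 and 0.30 in LhTERTL, -0.28, -0.19, 0.11 and -0.0043 in mock_cre and -0.047, -0.022, 0.0043 and 0.036 in the LhTERTL_cre tumours. It differed by 0.32 ± 0.065 on average (adjusted p = 0.000816), by 0.57 between LhTERTL and mock and by 0.083 in the Cre pair.

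ADM, DDIT4, VEGFA and KDM3A were lower with long telomeres when averaged over both pairs, but none was called between LhTERTL and mock. ADM encodes adrenomedullin, a peptide that widens blood vessels. It was 0.0064, -0.12, 0.31 and -0.20 in mock and 0.48, 0.25, -0.0064 and -0.21 in LhTERTL, with overlap. ADM in mock_cre was 0.75, 0.61, 0.82 and 0.60, and in LhTERTL_cre -0.47, -0.59, -0.43 and -0.29, so the Cre lines lay at opposite ends of the 16 tumours. The averaged difference was -0.51 ± 0.092 (adjusted p = 0.00035), made of 0.13 between LhTERTL and mock (adjusted p = 0.578) and -1.14 in the Cre pair (adjusted p = 6.17e-06); without the mock_cre arrays it was -0.16 (adjusted p = 0.425).

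DDIT4 encodes REDD1, which holds back the growth kinase mTORC1 under stress. It was 0.065, -0.32, 0.19 and 0.45 in mock and 0.23, 0.30, 0.18 and -0.086 in LhTERTL. DDIT4 in mock_cre was 0.015, -0.015, 0.23 and -0.10, and in LhTERTL_cre -0.78, -1.39, -0.64 and -0.73. LhTERTL_cre lay below all 12 other tumours, and the other lines overlapped. The averaged difference was -0.43 ± 0.11 (adjusted p = 0.00689). It was made of 0.059 between LhTERTL and mock (adjusted p = 0.861) and -0.92 in the Cre pair, a 1.89-fold lower signal in LhTERTL_cre.

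VEGFA, the main growth factor of blood vessels, was 0.095, 0.033, 0.031 and -0.085 in mock and -0.0037, 0.082, -0.10 and -0.023 in LhTERTL. VEGFA in mock_cre was 0.20, 0.19, 0.23 and 0.17, and in LhTERTL_cre -0.18, -0.31, -0.16 and -0.11. The Cre lines were the extremes, as for ADM, and the averaged difference was -0.21 ± 0.044 (adjusted p = 0.0013), with -0.12 without the mock_cre arrays (adjusted p = 0.166). LhTERTL and mock differed by -0.031 for VEGFA (adjusted p = 0.808), and the Cre pair by -0.39 (adjusted p = 0.000171). KDM3A, a histone demethylase induced by hypoxia, differed by -0.15 ± 0.055 (adjusted p = 0.0462), a call that 12 of the 16 fits leaving out 1 tumour lost. Neither pair alone passed for KDM3A, at -0.21 without Cre (adjusted p = 0.0695) and -0.090 with it (adjusted p = 0.458). ANKRD37 (-0.0049, adjusted p = 0.966), EGLN1 (0.14, adjusted p = 0.0707) and EGLN3 (0.18, adjusted p = 0.115) were not called; EGLN1 and EGLN3 are prolyl hydroxylases that mark the alpha subunits for degradation.

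HIF1A, the alpha subunit found in most tissues, was 0.26, 0.21, 0.35 and 0.25 in mock and 0.013, -0.027, -0.059 and -0.046 in LhTERTL. HIF1A in mock_cre was 0.16, 0.088, -0.017 and 0.0034, and in LhTERTL_cre -0.013, -0.0034, -0.029 and -0.14. Mock lay above all other tumours. HIF1A differed on average by -0.20 ± 0.042 (adjusted p = 0.00124), with -0.30 between LhTERTL and mock and -0.11 in the Cre pair (adjusted p = 0.223). EPAS1, which encodes HIF-2 alpha, differed by -0.18 ± 0.062 (adjusted p = 0.0339), from -0.015 between LhTERTL and mock and -0.34 in the Cre pair. Its call was lost in 8 of the 16 fits that left out 1 tumour, and without the mock_cre arrays the averaged value was -0.11 (adjusted p = 0.406). These values are of transcripts, and oxygen acts on the alpha subunits mainly as proteins.

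Each matched pair was also taken alone, the first differing in telomere length and exogenous hTERT and the second in telomere length without exogenous hTERT. Between LhTERTL and mock 18 genes were called, 17 higher and HIF1A lower, against 20.3% of all genes called. Between LhTERTL_cre and mock_cre 18 were called as well, 14 higher and 4 lower, against 28% of all genes. The enzymes gave 10 higher and none lower in each pair, with medians of 0.32 and 0.44. The other hypoxia targets gave 4 higher and none lower in the first pair, and 2 higher (BNIP3, EGLN1) and 3 lower (VEGFA, ADM, DDIT4) in the second. The sign was the same in both pairs for 28 of the 35 genes, against 63.2% of all genes. In both pairs HK1, GPI, PFKP, TPI1, PGK1, PGAM1, PFKFB3 and BNIP3 were called higher, 8 genes, while 9.94% of all genes were called with 1 sign in both, and none was called with opposite signs (1.08% of all genes). Between LhTERTL and mock the call was lost in 7 of the 16 fits that left out 1 tumour for TPI1 and in 6 each for PFKP and PGK1. In the Cre pair that of TPI1 was lost in 2.

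**Figure D3:**
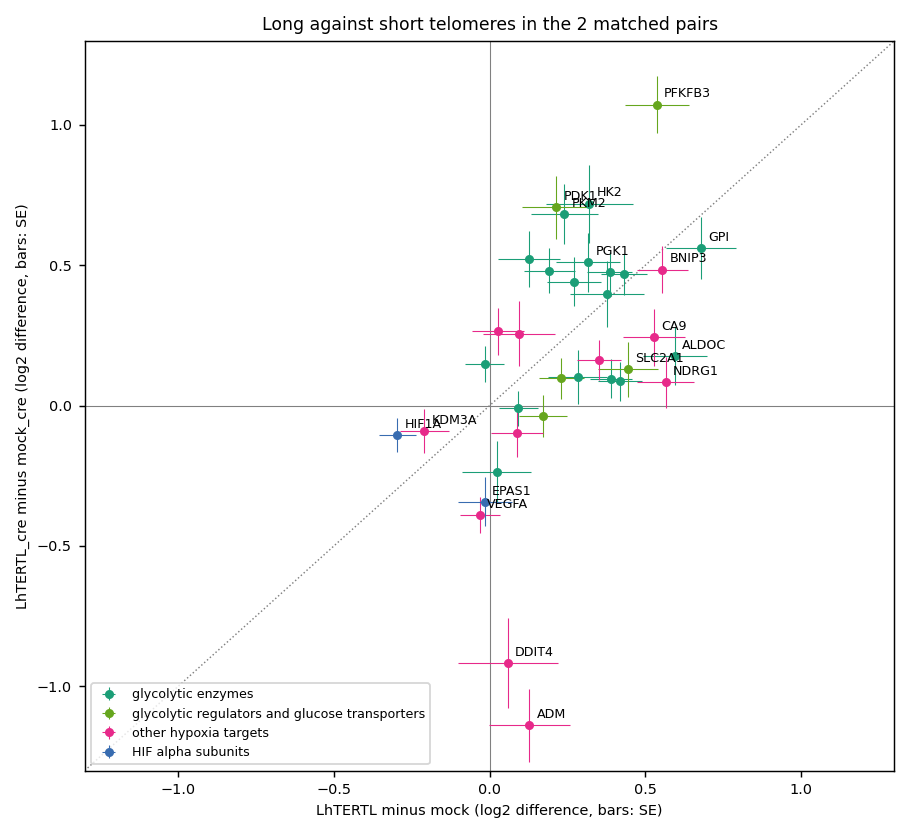
Log2 difference between LhTERTL and mock (horizontal) and between LhTERTL_cre and mock_cre (vertical) for the 35 genes, coloured by role, with SE bars and a dotted line of equal differences. Most enzymes lie in the upper right, PFKFB3 reaches 1.07 in the Cre pair, and ADM and DDIT4 lie low at -1.14 and -0.92.

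The difference between the pairs passed the test for 6 genes, 1 larger and 5 smaller in the Cre pair, against 10.6% of all genes (4.98% larger and 5.62% smaller). PFKFB3 was the one with the larger difference in the Cre pair. ADM had the greatest contrast, -1.27 ± 0.18 (adjusted p = 0.000401), followed by DDIT4 at -0.98 ± 0.23 (adjusted p = 0.01). NDRG1 gave -0.48 ± 0.13 (adjusted p = 0.0231), VEGFA -0.36 ± 0.089 (adjusted p = 0.0149) and LDHB -0.33 ± 0.098 (adjusted p = 0.0383). Thus 4 of the 11 other hypoxia targets and 1 of the 17 enzymes differed between the pairs. The LDHB call was lost in 10 of the 16 fits leaving out 1 tumour, that of NDRG1 in 4 and that of PFKFB3 in 3. The number of calls was 12 genes without the tumour LhTERTL_cre 4, against 13.4% of all genes, and 1 gene, ADM, against 4.77% of all genes, with the 3′ to 5′ control ratio, a measure of RNA quality, in the fit.

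Set side by side, the enzymes and the other hypoxia targets parted in LhTERTL_cre. The mean over the 17 enzymes was -0.10 ± 0.032 (SD, n = 4) in mock, 0.20 ± 0.031 in the LhTERTL tumours, -0.25 ± 0.11 in mock_cre and 0.085 ± 0.093 in LhTERTL_cre. The mean over the 11 other hypoxia targets was 0.033 ± 0.039 in mock, 0.23 ± 0.064 in the LhTERTL tumours, -0.068 ± 0.062 in mock_cre and -0.17 ± 0.035 in LhTERTL_cre. Enzymes minus hypoxia targets ranged from 0.19 to 0.34 over the 4 LhTERTL_cre tumours, from -0.065 to 0.015 in LhTERTL, from -0.21 to -0.094 in mock and from -0.26 to -0.050 in mock_cre. By these means both groups were highest in LhTERTL, but LhTERTL_cre was second for the enzymes and last for the hypoxia targets. DDIT4 (-0.89) and ADM (-0.44) pulled the LhTERTL_cre mean of the hypoxia targets down most. By single genes LhTERTL_cre was lowest for 5 of the 11, mock_cre for 4 and mock for 2. The means over both groups describe chosen genes and carry no test.

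Lines of equal telomere class were compared next, with the same tumours as above, so that these contrasts share arrays with the telomere contrasts. Between the short-telomere lines 18 genes differed, 3 higher and 15 lower in mock_cre, against 19.1% of all genes called (9.02% higher and 10.1% lower). The lower ones were 9 enzymes, PFKFB3, PDK1, BNIP3, EGLN1, KDM3A and HIF1A, and the higher ones PFKM, LDHB and ADM. PFKFB3 differed by -0.73 ± 0.10 (adjusted p = 0.000106), BNIP3 by -0.65 ± 0.083 (adjusted p = 4.72e-05), HK2 by -0.58 ± 0.14 (adjusted p = 0.00623) and PGK1 by -0.54 ± 0.10 (adjusted p = 0.00139). ADM was higher by 0.70 ± 0.13 (adjusted p = 0.00111) and PFKM by 0.49 ± 0.068 (adjusted p = 9.82e-05). GPI differed by 0.0027 ± 0.11 (adjusted p = 0.992), TPI1 by -0.12 and NDRG1 by 0.0098, none of which passed. The control ratio was 0.57 higher in mock_cre, and with it in the fit 8 genes were called, 2 higher and 6 lower, against 9.10% of all genes. In that fit the median was -0.29 over the enzymes (-0.26 without the ratio), -0.32 over the regulators and transporters (-0.18) and -0.13 over the other hypoxia targets (-0.081). The call of PFKP was lost in 10 of the 16 fits that left out 1 tumour. Of the 5 PC-3 epithelial markers 3 were higher and 1 lower in mock_cre, and their part in these values was not tested.

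The long-telomere lines differ both in exogenous hTERT, which LhTERTL_cre lacks, and in Cre, so these cannot be told apart. Between LhTERTL_cre and LhTERTL 9 genes differed and all were lower in LhTERTL_cre, against 3.24% of all genes called (0.921% higher and 2.31% lower). They were 6 of the 11 other hypoxia targets, 2 of the 5 regulators and transporters and 1 of the 17 enzymes. DDIT4 differed by -1.04 ± 0.16 (a 2.06-fold difference, adjusted p = 0.00148), BNIP3 by -0.72 ± 0.083 (adjusted p = 9.68e-05), ADM by -0.57 ± 0.13 (adjusted p = 0.022) and CA9 by -0.54 ± 0.10 (adjusted p = 0.00687). SLC2A1 differed by -0.50 ± 0.097 (adjusted p = 0.00917), NDRG1 by -0.47 ± 0.092 (adjusted p = 0.00838) and ANKRD37, an ankyrin repeat protein raised by hypoxia, by -0.40 ± 0.084 (adjusted p = 0.0134). PFKFB4 and HK1 were the others, at -0.34 and -0.28. The median over the hypoxia targets was -0.40, over the enzymes -0.10 and over all genes -0.0071. With these 8 arrays fitted alone 4 genes passed, BNIP3, CA9, DDIT4 and NDRG1, against 1.27% of all genes. The HK1 call was lost in 9 of the 16 fits that left out 1 tumour, that of ADM in 4 and that of PFKFB4 in 3. In the same contrast the endothelial markers KDR (0.99) and TIE1 (0.38), 2 of 9, were higher, and the fibroblast marker COL3A1 (-0.64), 1 of 9, was lower. The mean over the 9 endothelial markers ran from -0.18 to 0.017 in LhTERTL and from -0.0081 to 0.079 in LhTERTL_cre, and over the 9 fibroblast markers from 0.031 to 0.20 and from -0.018 to 0.058. Their part in the lower values was not tested.

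**Figure D4:**
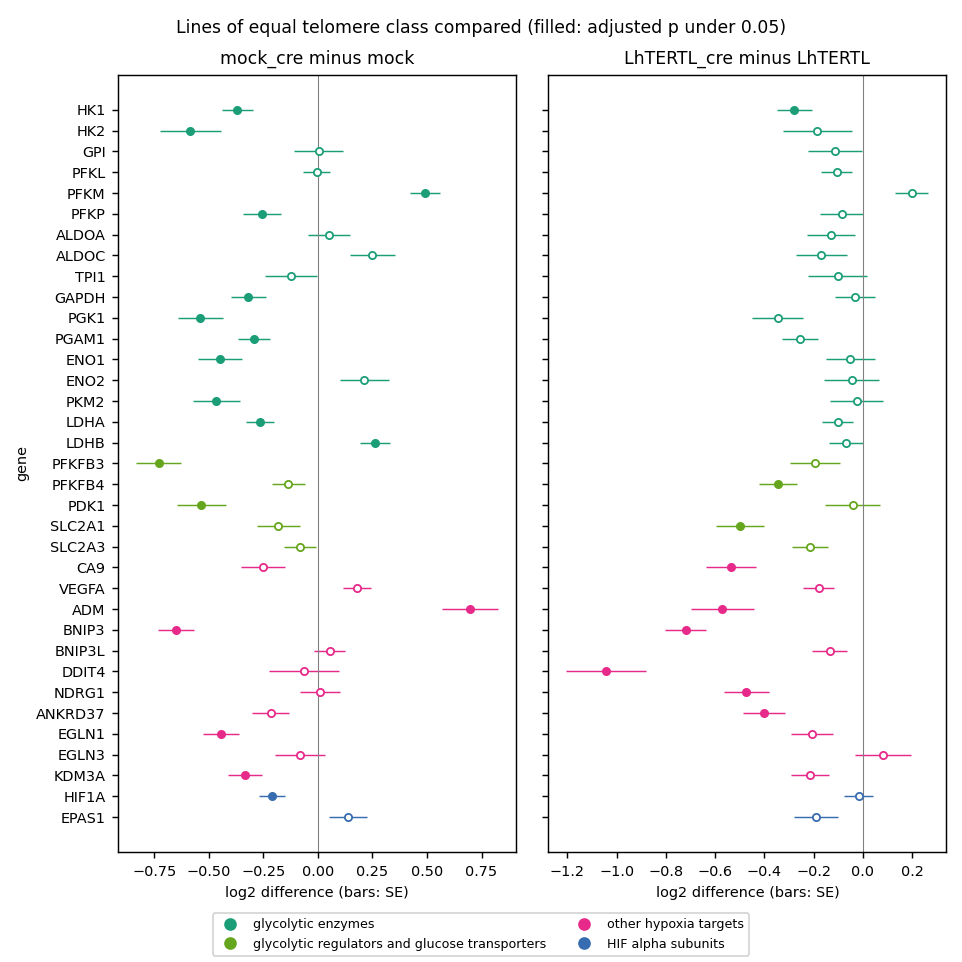
Log2 difference with SE of the 35 genes between mock_cre and mock (left) and between LhTERTL_cre and LhTERTL (right), filled where the adjusted p was under 0.05. Filled points lie mostly among the enzymes on the left and among the hypoxia targets on the right.

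The 35 genes were read by 70 probe sets, 14 genes by 1 and 21 by several, and no gene had probe sets called in opposite directions. PFKP rested on 1 of its 2 probe sets, at 0.71 (adjusted p = 5.38e-06) against 0.0043 for the other. SLC2A1 was 0.46 by one probe set and 0.11 by the other (adjusted p = 0.321), and EPAS1 was -0.41, -0.081 and -0.042 by its 3, of which the first passed. The 6 probe sets of PGK1 ranged from 0.21 to 0.70, and the 3 of ENO1 from -0.029 to 0.67. KDM3A passed as a gene, but neither of its 2 probe sets did alone (adjusted p = 0.0745 and 0.159). EGLN1 did not pass as a gene, but 2 of its 4 probe sets did, at 0.41 (adjusted p = 0.00358) and 0.23 (adjusted p = 0.0371). Its others were at 0.042 and -0.11. All probe sets of GAPDH, ALDOA and LDHB, and some of TPI1, PFKL, PFKP, SLC2A3, VEGFA, ANKRD37, EGLN1 and KDM3A, carry the _x_at mark, given to designs that can match other transcripts too, so near copies cannot be told apart there.

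**Figure D5:**
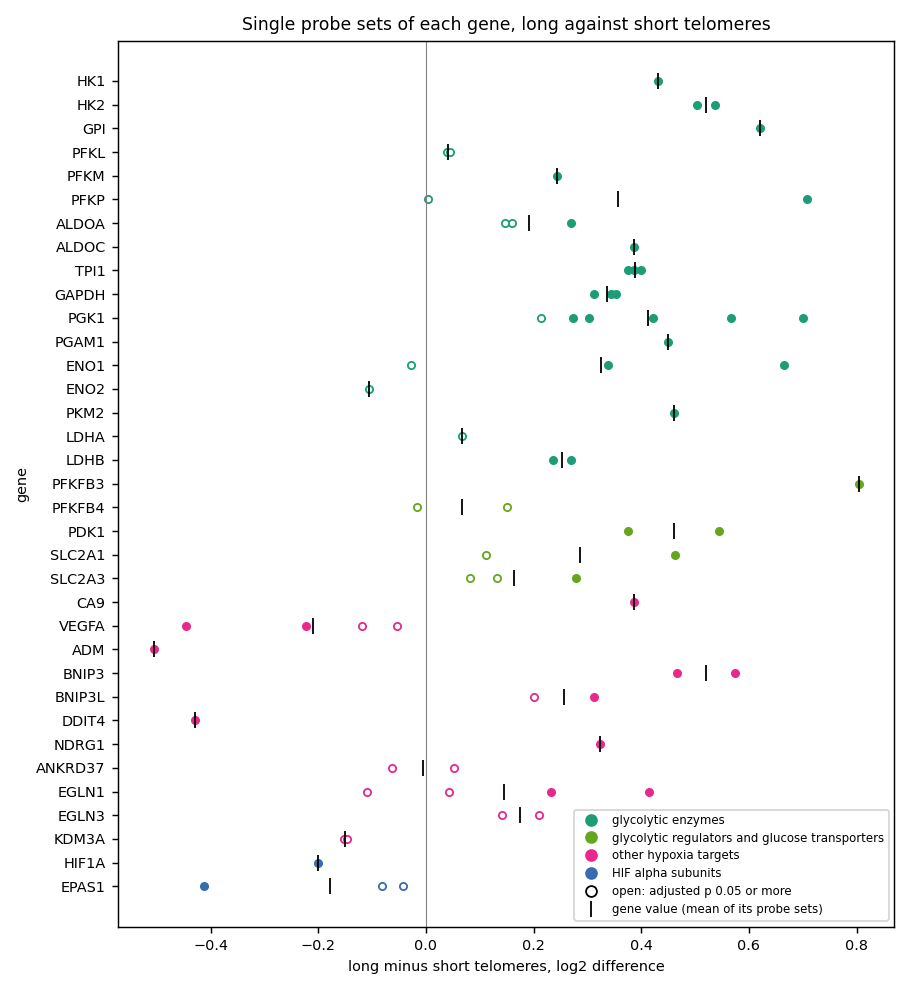
Long minus short telomeres for each of the 70 probe sets (circles, filled where the adjusted p was under 0.05) with the gene value, their mean, as a black tick. GAPDH and TPI1 have every one of their 3 probe sets called. PFKP, ALDOA, PGK1, ENO1, SLC2A1, SLC2A3, VEGFA, BNIP3L and EPAS1 rest on some of theirs, and KDM3A has no probe set called alone. EGLN1, not called as a gene, has some probe sets called higher.

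RNA quality differed between lines. The log2 ratio of 3′ to 5′ signal, from control probe sets of GAPDH and beta-actin, which grows as RNA degrades, was 0.64 ± 0.38 (SD, n = 4) in mock_cre, 0.070 ± 0.18 in mock, -0.080 ± 0.15 for LhTERTL and -0.070 ± 0.21 in LhTERTL_cre, with mock_cre 4 highest at 1.21. Mock_cre exceeded mock by 0.57 and LhTERTL_cre by 0.71 (exact permutation p = 0.0286 for each, the smallest that 4 against 4 allow, adjusted p = 0.0571 over 4 comparisons). With this ratio as a term in the fit, the enzymes kept 13 higher and none lower between long and short telomeres, and DDIT4, ENO1 and EPAS1 lost the call. In that fit 25 of the 35 genes were called, against 25.7% of all genes (28 and 32.5% without the ratio). In the Cre pair 14 were called, against 17.2% of all genes (18 and 28% without the ratio). There 8 enzymes were higher, where the fit without the ratio had 10. The part of the ratio in the low mock_cre values was not tested beyond that fit. GAPDH is itself a member; its control probe sets were left out of its value.

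Markers of other cells were also counted, beside 18.4% of all genes called higher and 14.1% lower between long and short telomeres. Between long and short telomeres 1 of 9 endothelial markers was higher and 1 lower (PECAM1 0.39, KDR -1.18), 2 of 9 fibroblast markers were higher (COL1A1 0.30, PDGFRA 0.21) and 1 of 8 macrophage markers was lower (AIF1 -0.26). No muscle or red cell marker, of 9 and 6, passed limma's test or had an unadjusted p under 0.05. Human probes see mouse RNA only by cross-hybridisation. Of 5 PC-3 epithelial markers KRT19 was higher (0.35), and EPCAM, CDH1 and KRT18 differed between the pairs (all called), by -2.52, -1.65 and -1.09. The mean over the 5 ran from -0.61 to -0.13 in mock, 0.011 to 0.25 in LhTERTL, 0.016 to 0.48 in mock_cre and -0.70 to 0.11 in LhTERTL_cre. Their part in the values of ADM, DDIT4, NDRG1, VEGFA, LDHB and PFKFB3 was not tested.

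Neighbouring pathways were counted from lists drawn up beside the 35 genes. Of 18 genes of pyruvate and lactate handling 9 were higher and 3 lower with long telomeres (66.7% called), with a median of 0.17. Over all genes 32.5% were called, 18.4% higher and 14.1% lower. DLAT, a subunit of pyruvate dehydrogenase, was higher by 0.64 ± 0.064 (adjusted p = 1.03e-06), PC, pyruvate carboxylase, by 0.54 ± 0.064 (adjusted p = 6.46e-06) and BRP44, the mitochondrial pyruvate carrier MPC2, by 0.34 ± 0.046 (adjusted p = 2.17e-05). Of 15 genes of the pentose phosphate and glycogen branches 9 were higher and 1 lower (66.7% called), with a median of 0.18. PGM2, a phosphoglucomutase family member, was higher by 0.70 ± 0.089 (adjusted p = 1.17e-05), TKT, transketolase, by 0.59 ± 0.061 (adjusted p = 1.49e-06) and GBE1, the glycogen branching enzyme, by 0.57 ± 0.048 (adjusted p = 1.48e-07).

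Of 23 isozymes and regulators of glycolysis outside the set 5 were higher and 1 lower, with PGAM4 not measured, and the median was 0.030. These calls made up 26.1% of the list, a smaller share than the 32.5% over all genes. HKDC1, a further hexokinase, was higher by 0.27 ± 0.049 (adjusted p = 0.000365), the transporter SLC2A10 by 0.24 ± 0.056 (adjusted p = 0.00256) and BPGM, which makes 2,3-bisphosphoglycerate, by 0.31 ± 0.091 (adjusted p = 0.0128). Of 37 further targets of the hypoxia factor 11 were higher and 8 lower (51.4% called, against 32.5% of all genes), with a median of 0.034. LOX, the collagen cross-linking lysyl oxidase, differed by -1.01 ± 0.16 (adjusted p = 0.000135), the repressor KLF3 by -0.46 ± 0.069 (adjusted p = 5.8e-05), and HIGD1A, a mitochondrial protein, was higher by 0.48 ± 0.079 (adjusted p = 0.00015). Of 18 partners and regulators of the alpha subunits 2 were higher and 1 lower (16.7% called, again a smaller share than over all genes). RBX1, of the ligase that destroys the alpha subunits, was at 0.31 ± 0.064 (adjusted p = 0.001). The chaperone HSP90AA1 was at 0.26 ± 0.050 (adjusted p = 0.000699) and the coactivator CREBBP at -0.13 ± 0.048 (adjusted p = 0.0388).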

How the data were processed

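RNA of 16 tumours, 100 ng each, was measured on 1-colour Affymetrix arrays. The deposited values are on the log2 scale, normalized by the authors with RMA per the submitters' processing notes. In the files each probe set has a median of 0 over the 16 arrays (within 0.5 millionths), a centring that the labels do not state. Both deposited tables held the same values.

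Gene names came from the deposited annotation. Of 54675 probe sets, 41479 named exactly 1 gene and were averaged per gene, giving 20307 genes; 62 control probe sets, 961 naming several genes and 12173 naming none were left out. With no absolute signal, dim probe sets could not be filtered. limma 3.58.1 in R 4.3.3 fitted 1 mean per line over the 16 arrays, with two-sided moderated tests whose p-values were adjusted (Benjamini-Hochberg) over the 20307 genes, at 0.05; every adjusted p without another name is limma's. The fit was tested on simulated data. Tables and figures used matplotlib 3.10.9, numpy 2.4.6 and pandas 2.3.3 under Python 3.11.15. Array number limits the precision. All members are named, and of each other list the 3 genes with the smallest adjusted p between long and short telomeres. The members and lists were chosen with earlier results of these data known. The alternatives tried were the gene summary, normalization, array weights, blocks, the control ratio as a covariate, and subsets of arrays. Promoter windows are RefSeq's (GRCh38.p14).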

Additional observations from a re-analysis of the deposited data

Results flagged for a closer look

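Single tumours stood far from the other 3 of their line in 7 of the 140 sets of 4 values, and chance alone flags about 1 in 20. HK1 was lowest in mock 3, at -0.154 against -0.018 to 0.0068. LDHB was lowest in mock_cre 2, at -0.176 against -0.018 to 0.014, and so was PDK1, at -0.816 against -0.51 to -0.50. PFKFB3 was highest in mock 2, at 0.0775 against -0.11 to -0.077. PFKFB3 was also low in LhTERTL_cre 4, at -0.0828 against 0.37 to 0.45. EGLN1 was highest in LhTERTL 1, at 0.298 against 0.078 to 0.086, and EGLN3 in LhTERTL 3, at 0.294 against -0.056 to -0.021.

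For 6 genes the Cre pair and the pair without Cre gave different telomere differences by limma's test of that difference. The Cre pair minus the other was -1.27 for ADM (adjusted p = 0.000401), -0.98 for DDIT4 (adjusted p = 0.009998), -0.48 for NDRG1 (adjusted p = 0.0231), -0.36 for VEGFA (adjusted p = 0.0149) and -0.33 for LDHB (adjusted p = 0.0383). PFKFB3 was larger in the Cre pair by 0.53 (adjusted p = 0.0240).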

How the results depend on the processing

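No direction of a called gene turned under any change of array, normalization or model; only single probe sets read alone did so, with -0.0285 for ENO1 (long minus short telomeres), and in the Cre pair -0.0202 for PFKP, -0.0270 for PGK1, -0.0561 for EGLN1 and 0.000216 for EPAS1. Between long and short telomeres the count of 28 genes became 0 with the line as the unit, where none of all genes was called. It was 15 without the mock_cre arrays, against 21.5% of all genes (32.5% in the main fit). Between mock_cre and mock it became 8 with the 3′ to 5′ control ratio as a covariate, while the share of all genes called went from 19.1% to 9.10% and the enzyme median from -0.26 to -0.29. Between LhTERTL_cre and LhTERTL it became 5 at an adjusted p under 0.01 and 4 with only those arrays fitted. For the difference between the pairs it became 2 at an adjusted p under 0.01, 11 with array weights and 1 with the ratio. Leaving out each tumour in turn gave 25 to 27 genes between long and short telomeres, 13 to 19 between LhTERTL and mock, 16 to 20 between LhTERTL_cre and mock_cre, 16 to 19 between mock_cre and mock, 6 to 11 between LhTERTL_cre and LhTERTL, 4 to 12 for the difference between the pairs and 30 to 32 for any difference among the lines. Replicate numbers do not pair the tumours: of 24 same-numbered pairs 9 had a correlation over 0.1 (range -0.33 to 0.37), and 5 of 16 tumours correlated best with their own number. With the replicate number as a block the counts were 28, 17, 18, 17, 9, 5 and 31, in the order long against short, LhTERTL against mock, the Cre pair, mock_cre against mock, LhTERTL_cre against LhTERTL, the difference between the pairs and any difference. The shares of all genes in that fit were 32.9% for long against short, 20.4% for LhTERTL against mock and 28.1% for the Cre pair. The cause of these shifts was not tested.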

Other observations

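SLC2A1 and PFKFB4 were each read by probe sets that gave unlike values. Between LhTERTL_cre and LhTERTL, SLC2A1 was -0.92 by one probe set and -0.071 by the other. PFKFB4 was -0.64 by one and -0.048 by the other in the same comparison.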
